A study of Mus musculus with 8 samples.

Results

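A set of 10 genes for carriers of glutamine and other neutral amino acids were followed in mouse heart: Slc38a1, Slc38a2, Slc38a3, Slc38a4, Slc38a9 and Slc38a10 of the SLC38 family, and the partner transporters Slc1a5, Slc7a5, Slc7a8 and Slc3a2. These 10 genes were taken by name from a table of 55573 genes, and all 10 were among the 17411 with enough counts to be tested. Slc38a1 was chosen by its genotype difference in these same libraries, so that difference is given as a description. The other 9 were selected as its relatives and partners with earlier results of these data known. The study compared hearts of male db/m and db/db mice, all 24 weeks old and of strain C57BLKS/J, with 4 libraries of each genotype and 3 µg of total RNA per library. Animals called db/db are homozygous for a mutation of the leptin receptor gene in every cell and become obese and diabetic. Those called db/m carry a single mutant copy and are the lean controls, so both genotypes carry the allele. Whether each library is from its own animal is not stated in the labels. The p-values below therefore speak of the scatter among these libraries, part of which may be technical.

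Heart muscle takes up glutamine, leucine and other neutral amino acids through carriers in the plasma membrane. SLC38A1, SLC38A2 and SLC38A4 move small neutral amino acids into the cell together with sodium (system A), SLC38A3 moves glutamine, histidine and asparagine (system N), and SLC38A9 sits on the lysosome, where it takes part in arginine sensing by mTORC1. SLC1A5 exchanges glutamine and other neutral amino acids across the membrane, and SLC7A5 and SLC7A8 exchange large neutral amino acids such as leucine, each bound to the heavy chain SLC3A2. Amino acid shortage is known to act through the kinase GCN2 and the transcription factor ATF4, whose targets include several amino acid transporters and the enzymes of serine and asparagine synthesis.

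Slc38a1, Slc38a2 and Slc38a4 lie side by side on the minus strand of chromosome 15 and code for related proteins. A stretch of 90 bases of their coding sequences is shown. It was picked as the stretch without gaps that shares the most bases, so it does not stand for the whole sequences. Bases shared by all 3 genes, 63 of the 90, are in capitals, and positions are counted from the A of the start codon in the named GENCODE M21 transcript (bases 210 to 299 of Slc38a1-201 and of Slc38a2-201, bases 222 to 311 of Slc38a4-201).
Slc38a1: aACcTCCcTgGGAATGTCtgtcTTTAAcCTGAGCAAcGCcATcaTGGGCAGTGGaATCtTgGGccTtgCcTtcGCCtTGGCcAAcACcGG
Slc38a2: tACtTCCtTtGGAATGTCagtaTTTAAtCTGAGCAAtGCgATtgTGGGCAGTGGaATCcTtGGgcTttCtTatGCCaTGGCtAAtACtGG
Slc38a4: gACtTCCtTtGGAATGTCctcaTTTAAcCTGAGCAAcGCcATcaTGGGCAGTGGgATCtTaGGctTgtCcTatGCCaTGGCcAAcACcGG
Over the whole coding sequence, Slc38a1 matched Slc38a2 at 58.1% and Slc38a4 at 61.2% of aligned bases. Slc38a3, on chromosome 9, matched Slc38a1 at 57.7%, with a longest shared run of 26 bases. The longest run that Slc38a1 shared with Slc38a2 without a mismatch had 17 bases, and the longest shared with Slc38a4 had 32 bases, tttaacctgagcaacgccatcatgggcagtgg. No other gene matched the coding part of a member at 90% identity or more over at least 100 bases, apart from Gm11769. That transcript overlaps exons of Slc38a10 on the opposite strand over 367 bases and held 19 counts in all libraries together, against 23126 for Slc38a10. The noncoding part of Slc3a2 transcripts matched transcripts of 1729 other genes at that identity, so counts of Slc3a2 are uncertain to the extent that reads from that part were counted.

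Library totals ranged from 19541757 to 22249911 counts. Levels are given as CPM, counts scaled to 1000000 per library, taking the library size after scaling by TMM factors, and differences as log2 fold changes of db/db over db/m from edgeR's quasi-likelihood test. The Benjamini-Hochberg adjustment of p-values covered all 17411 tested genes, and the threshold was 0.05. Transcripts of Lepr, the mutated gene, ranged from 5.28 to 21.0 CPM in db/m and from 3.73 to 6.68 CPM in db/db, and gene counts do not separate the mutant form. The db/m libraries 1 and 3 stood apart: 9 of 10 adipocyte markers and 7 of 7 atrial markers were higher in both than in any of the other 6 libraries. The adipocyte markers summed to 750 and 1434 CPM in db/m 1 and 3 and to between 336 and 645 CPM elsewhere, and the atrial markers to 1933 and 4542 CPM against 19.5 to 135 CPM. The 8 ventricular markers summed to between 30704 and 38550.2 CPM, with Myh6, a myosin heavy chain, the most abundant in every library. In db/m 3, 5 of the 8 were far below all other libraries. Myl2 stood at 117 against 593 CPM or more and Myl3 at 758 against 2334 or more, and likewise Tnni3, Tnnt2 and Actc1. The rest of the list went the other way in that library. Myh6 (20479 CPM) and Ttn (4044 CPM) were at their highest of all libraries, and Myh7 (1201 CPM) at its highest in db/m. Results that rest on db/m 1 and 3 are therefore given with and without them.

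Slc38a1 was the single gene of 17411 past the threshold (0.00574%), and it was lower in db/db hearts. This gene (ENSMUSG00000023169, chromosome 15, 96571418 to 96642913, minus strand, mm10) stood at 40.7, 24.6, 57.3 and 36.0 CPM in db/m replicates 1 to 4. In db/db replicates 1 to 4 its level was 5.22, 4.69, 6.36 and 4.06 CPM. All 4 db/db libraries lay far below the lowest db/m library. In CPM the spread among db/db libraries was also smaller than that among db/m libraries, at a mean that was itself far lower. Behind these levels stood 502 to 1386 counts per db/m library and 76 to 138 counts per db/db library. The means were 39.7 ± 13.6 and 5.08 ± 0.975 CPM (SD, n = 4), a log2 fold change of -2.96 (SE 0.26), or 7.79-fold lower. The edgeR adjusted p by which Slc38a1 stood out was 0.00925. Leaving out a single library kept the log2 fold change between -3.13 and -2.72. The adjusted p passed above the threshold without db/m 1 (0.0618), without db/db 1 (0.0827), without db/db 2 (0.126) and without db/db 4 (0.103).

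The highest Slc38a1 levels of all 8 were in db/m 3 and db/m 1, the libraries with adipocyte and atrial markers. In db/m 2 and 4, where Ucp1 and Adipoq, defining adipocyte genes, were at 0.475 CPM or less, Slc38a1 stood at 24.6 and 36.0 CPM, above every db/db library. Of the 10 adipocyte markers, Adipoq (0.196 and 0.475 CPM) and Cfd (0.638 and 1.47 CPM) were above every db/db library in both. Together the 10 summed to 348 and 337 CPM there, inside the db/db range of 336 to 645 CPM. Most of each of these sums was Fabp4, at 318 and 309 CPM in db/m 2 and 4 and 304 to 607 CPM in db/db. Fabp4 was lowest of all libraries in db/m 3, at 186 CPM. Outside db/m 1 and 3 the sum therefore says little of the other markers. Atrial markers summed to 19.5 CPM in db/m 2, the lowest of all libraries. Nppa made up most of that sum (14.4 CPM), as it did of the highest db/db sum (116 of 135 CPM, in db/db 2). Myl4, at 1.18 CPM in db/m 2, was above every db/db library (0.8 CPM or less). In db/m 4 the atrial markers summed to 102 CPM, and Myl4 (10.8 CPM), Sln (3.94 CPM) and Mybphl (2.28 CPM) were above every db/db library. The part of adipocyte or atrial RNA in the Slc38a1 level was not tested. Without db/m 1 and 3 its log2 fold change was -2.58 (SE 0.20). Neuron and Schwann cell markers summed to 64.8 CPM in db/m 1 and to between 25.5 and 33.3 CPM in the other 7 libraries, so they did not separate the genotypes. Of 7 smooth muscle and pericyte markers, Acta2 was lower in every db/db library than in any db/m library. It stood at 154, 133, 286 and 108 CPM in db/m and at 35.1 to 65.0 CPM in db/db. The same held for 2 of 7 endothelial markers, Tie1 and Tek, and for 803 of all 17411 tested genes. In both lists 0 markers were higher in this way. Among lymphocyte markers 1 was lower and 1 higher, and among ventricular markers 1 was higher. The part of such cells in the Slc38a1 level was not tested. In whole-tissue RNA, fewer cells that express a gene and less of its RNA per cell cannot be told apart, here and below.

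The 9 other members did not pass the threshold by edgeR, DESeq2 or limma-voom, nor in any fit that left libraries out. Across all 10 members the median log2 fold change was -0.09, with 4 values above and 6 below 0, beside a median of -0.02 over all tested genes. At an unadjusted edgeR p under 0.05, 1 of 10 members was counted, Slc38a1, against 13.0% of all tested genes. Groups did not overlap for 2 of 10 members, Slc38a1 and Slc38a2, against 9.65% of all tested genes. Because the members were picked with results known, these shares describe the set and set nothing apart.

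**Figure D1:**
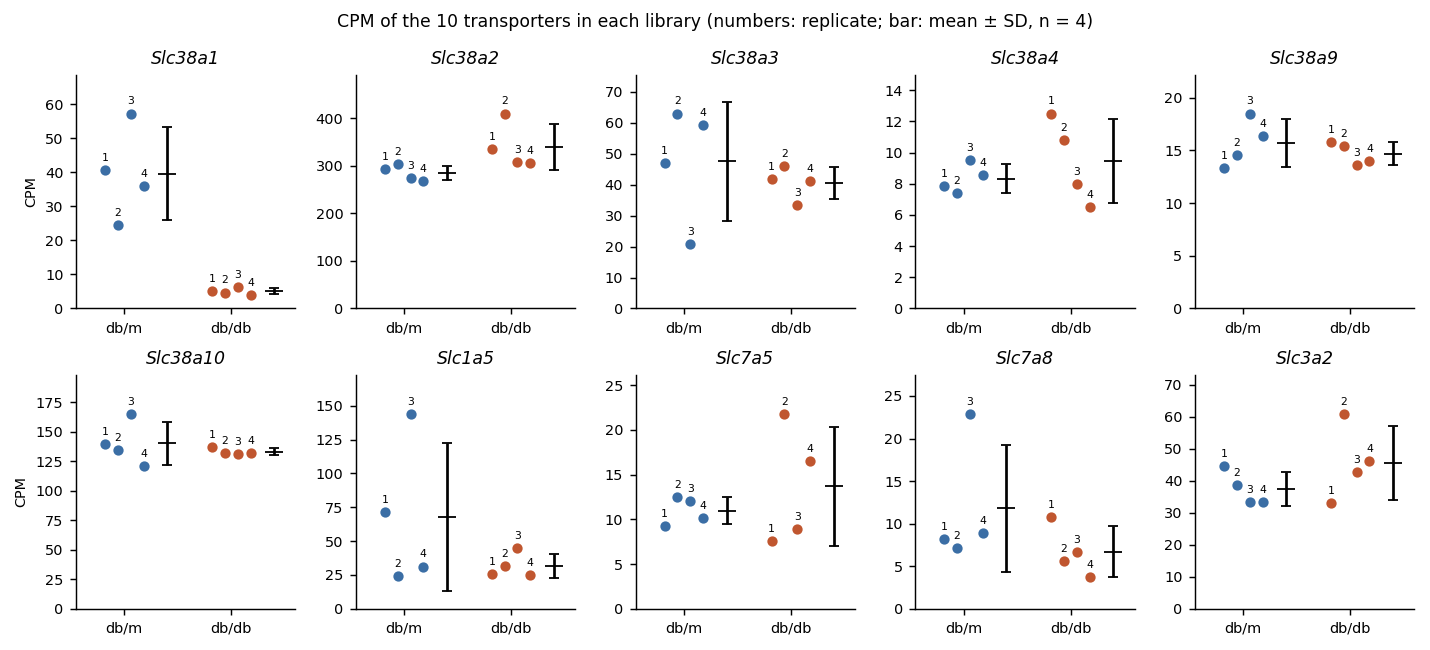
CPM of each of the 10 transporters (vertical axis, from 0, its own scale per gene) in the 4 db/m and 4 db/db libraries; each point is a library with its replicate number, and the black bar is the mean with SD. Slc38a1 lies at 24.6 CPM or more in db/m and at 6.36 CPM or less in db/db, Slc1a5 is highest in db/m 1 and 3, and Slc7a5 and Slc3a2 are highest in db/db 2 and 4.

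Slc38a2, the most abundant member and the system A carrier known to be induced by amino acid shortage, showed slightly higher levels in db/db. Its db/m libraries stood at 293, 303, 275 and 269 CPM and its db/db libraries at 335, 410.1, 309 and 306 CPM. Every db/db library lay above every db/m library, db/db 2 being the highest, though the gap between the groups was narrow. This separation held for levels scaled by TMM factors, and not for counts over library totals alone. With total counts only, the log2 fold change was 0.14 (SE 0.14, edgeR adjusted p = 0.588). With TMM factors the log2 fold change was 0.26 (SE 0.14, 95% interval -0.05 to 0.56; edgeR adjusted p = 0.434). Without db/m 1 and 3 it was 0.24 (SE 0.13). Slc38a2 (ENSMUSG00000022462) lies on chromosome 15 at 96687392 to 96699730, and its start site is 56.8 kb upstream of that of Slc38a1. The ratio of Slc38a2 to Slc38a1 CPM ran from 4.80 to 12.3 in db/m libraries and from 48.6 to 87.4 in db/db libraries.

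Slc38a4, the third system A gene (ENSMUSG00000022464, chromosome 15, 96994820 to 97055956), was measured at a low level in both genotypes. It stood at 7.83, 7.41, 9.51 and 8.55 CPM in db/m and at 12.5, 10.8, 7.97 and 6.51 CPM in db/db. The db/db libraries spread on both sides of the db/m libraries. Its log2 fold change was 0.18 (SE 0.22, 95% interval -0.31 to 0.67; edgeR adjusted p = 0.707). Adding the CPM per kilobase of merged exons of Slc38a1, Slc38a2 and Slc38a4 gave 34.5 to 37.5 in db/m and 36.4 to 49.2 in db/db libraries. Within that sum Slc38a1 made up 3.82% to 9.07% in db/m and 0.553% to 0.992% in db/db, and most of the rest was Slc38a2.

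Slc38a3, the system N carrier (ENSMUSG00000010064, chromosome 9, 107650634 to 107669530, minus strand), varied most among db/m libraries. The db/m values were 46.9, 63.0, 20.8 and 59.3 CPM, and the db/db values 41.7, 46.0, 33.5 and 41.1 CPM. The lowest value of all was that of db/m 3, the library with the most adipocyte and atrial marker RNA, and db/m 1, 2 and 4 lay above every db/db library. With all libraries the log2 fold change was -0.23 (SE 0.29, 95% interval -0.87 to 0.42; edgeR adjusted p = 0.722). Without db/m 1 and 3 it was -0.60 (SE 0.13, adjusted p = 0.0848), farther from 0 and still short of the threshold.

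Slc38a9, the lysosomal arginine sensor (ENSMUSG00000047789, chromosome 13, 112660751 to 112738749, plus strand), differed little between libraries. Its levels were 13.3, 14.6, 18.5 and 16.4 CPM in db/m and 15.8, 15.4, 13.6 and 14.0 CPM in db/db. All db/db values fell inside the db/m range, and the log2 fold change was -0.09 (SE 0.15, 95% interval -0.42 to 0.23). Slc38a10, a widely expressed family member whose substrates include glutamine (ENSMUSG00000061306, chromosome 11, 120103960 to 120151346, minus strand), stood at 139.7, 134, 165 and 121 CPM in db/m. Its db/db libraries were within a few CPM of each other, at 137, 132, 131 and 132 CPM. Its log2 fold change was -0.08 (SE 0.12, 95% interval -0.35 to 0.20), and 0.05 (SE 0.10) without db/m 1 and 3. The edgeR adjusted p was 0.769 for Slc38a9 and 0.776 for Slc38a10.

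Slc1a5, the glutamine exchanger also named ASCT2 (ENSMUSG00000001918, chromosome 7, 16781340 to 16798274, plus strand), had the second largest fitted difference of the 10, and it rested on 2 libraries. It stood at 71.6, 24.3, 144 and 31.2 CPM in db/m and at 26.0, 31.4, 44.6 and 25.0 CPM in db/db. The values of db/m 1 and 3 were above all others, while db/m 2 and 4 lay within or just below the db/db range. The log2 fold change was -1.09 (SE 0.49, 95% interval -2.19 to 0.01; edgeR adjusted p = 0.386). Without db/m 1 and 3 it changed sign to 0.19 (SE 0.23, adjusted p = 0.843). These are the 2 libraries in which adipocyte markers summed to 750 and 1434 CPM and atrial markers to 1933 and 4542 CPM, while Ucp1, the brown adipocyte uncoupling protein, had 0 counts in db/m 4 and in all db/db libraries. The part of either tissue in the Slc1a5 level was not tested.

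Slc7a8, the broad-range light chain LAT2 (ENSMUSG00000022180, chromosome 14, 54722209 to 54781946, minus strand), was high in a single library. Its values were 8.22, 7.17, 22.9 and 8.88 CPM in db/m and 10.8, 5.58, 6.63 and 3.74 CPM in db/db. The db/m 3 library was far above any other, and the remaining 7 overlapped between genotypes. The log2 fold change of -0.82 (SE 0.42, 95% interval -1.76 to 0.12; edgeR adjusted p = 0.427) became -0.27 without db/m 3, and -0.27 (SE 0.35) without db/m 1 and 3 together.

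**Figure D2:**
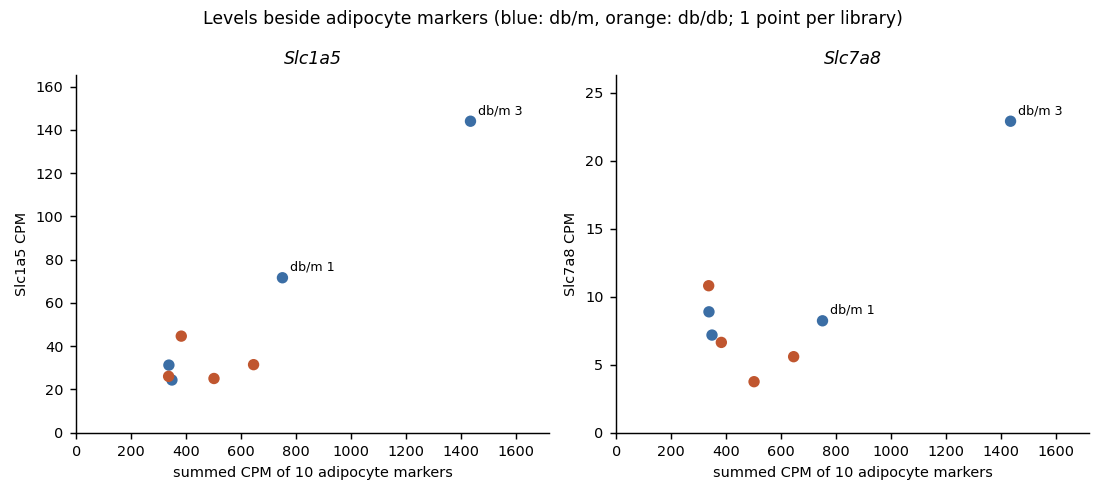
CPM of Slc1a5 (left) and Slc7a8 (right) against the summed CPM of 10 adipocyte markers, with 1 point per library, db/m in blue and db/db in orange. Slc1a5 is highest in db/m 1 and 3, where the markers sum to 750 and 1434 CPM, and Slc7a8 is high in db/m 3 but not in db/m 1.

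Slc7a5, the leucine-carrying light chain LAT1, and Slc3a2, the heavy chain 4F2hc that brings it to the cell surface, shared their order across db/db libraries. Slc7a5 (ENSMUSG00000040010, chromosome 8, 121881150 to 121907694, minus strand) stood at 9.28, 12.5, 12.0 and 10.1 CPM in db/m and at 7.54, 21.8, 8.94 and 16.5 CPM in db/db. Slc3a2 (ENSMUSG00000010095, chromosome 19, 8706882 to 8723369, minus strand) stood at 44.5, 38.7, 33.5 and 33.4 CPM in db/m and at 33.0, 60.9, 42.7 and 46.1 CPM in db/db. For both genes the 2 highest of all 8 libraries were db/db 2 and then db/db 4, and the lowest was db/db 1, so the db/db libraries surrounded the db/m range. The log2 fold change was 0.32 for Slc7a5 (SE 0.31, 95% interval -0.38 to 1.02; edgeR adjusted p = 0.636) and 0.28 for Slc3a2 (SE 0.19, 95% interval -0.13 to 0.70; adjusted p = 0.503). Leaving out db/db 2 took the Slc7a5 value to 0.00.

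About as many targets of ATF4 had these 2 libraries highest as did not. Among 27 tested genes of a list of ATF4 and its amino acid response targets, 13 had their 2 highest values in db/db 2 and db/db 4, as did 2 of 10 members (Slc7a5 and Slc3a2) and 5.34% of all tested genes. The 13 were Trib3, Asns, Chac1, Psat1, Shmt2, Mthfd2, Aldh1l2, Atf5, Ppp1r15a, Aars, Gars, Nars and Sars, which include enzymes of serine, folate and asparagine metabolism and aminoacyl-tRNA synthetases. This pattern over libraries was looked for after the values were seen, and the other 14 tested genes of the list did not show it. Vldlr, for example, was highest in db/db 1, at 560 CPM, and Ddit3 stood higher in db/db 3 (16.9 CPM) than in db/db 4 (13.5 CPM). Mthfd2, a mitochondrial folate enzyme, stood at 49.9 CPM in db/db 2 and 24.3 CPM in db/db 4, and between 2.44 and 4.62 CPM in the other 6 libraries. Psat1, which makes phosphoserine, stood at 24.3 and 15.7 CPM in db/db 2 and 4 and between 3.70 and 7.05 CPM elsewhere. Asns, asparagine synthetase, stood at 11.6 and 8.70 CPM there and between 2.12 and 6.04 CPM elsewhere. Atf4 itself, whose protein is controlled mainly at translation, reached 164 CPM in db/db 2 but 87.9 CPM in db/db 4, inside the range of the others. The labels give no difference between db/db libraries.

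The letters TGATGNAA, a form of the element that ATF4 binds with a C/EBP partner, were searched on both strands of RefSeq promoter windows (250 bases before to 50 after the start site, GRCm38.p6). They occurred in 9 of the 25 list genes whose window was searched and in 3.97% of 32851 windows. Several list genes had more windows than the others, so the share of genes and the share of windows are not like measures. Of the genes highest in db/db 2 and 4, Trib3, Chac1, Asns and Gars held them, while Psat1, Shmt2, Mthfd2, Atf5, Ppp1r15a and Sars did not. Atf3, Nupr1 and Vldlr also held them without these as their 2 highest libraries. Slc7a11 and Fgf21 held them too but had too few counts to be tested. The 4 matches are shown with 10 bases on each side, the element in capitals, since their genes had the same 2 highest libraries as Slc7a5 and Slc3a2. Trib3 is at chr2:152344029-152344056 on the plus strand, Chac1 at chr2:119351039-119351066 on the minus strand, Asns at chr6:7693215-7693242 on the minus strand, and Gars at chr6:55037961-55037988 on the minus strand.
Trib3: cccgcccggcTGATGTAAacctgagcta
Chac1: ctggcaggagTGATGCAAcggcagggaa
Asns: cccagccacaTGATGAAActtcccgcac
Gars: gcccggtgcaTGATGAAAtagcgcagcc
The table held 8 windows of 6 members, Slc38a2, Slc38a4, Slc38a9, Slc38a10, Slc7a8 and Slc3a2, and 0 of the 8 held the element. These letters are thus not in those windows, which says nothing of sites elsewhere in the genes.

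**Figure D3:**
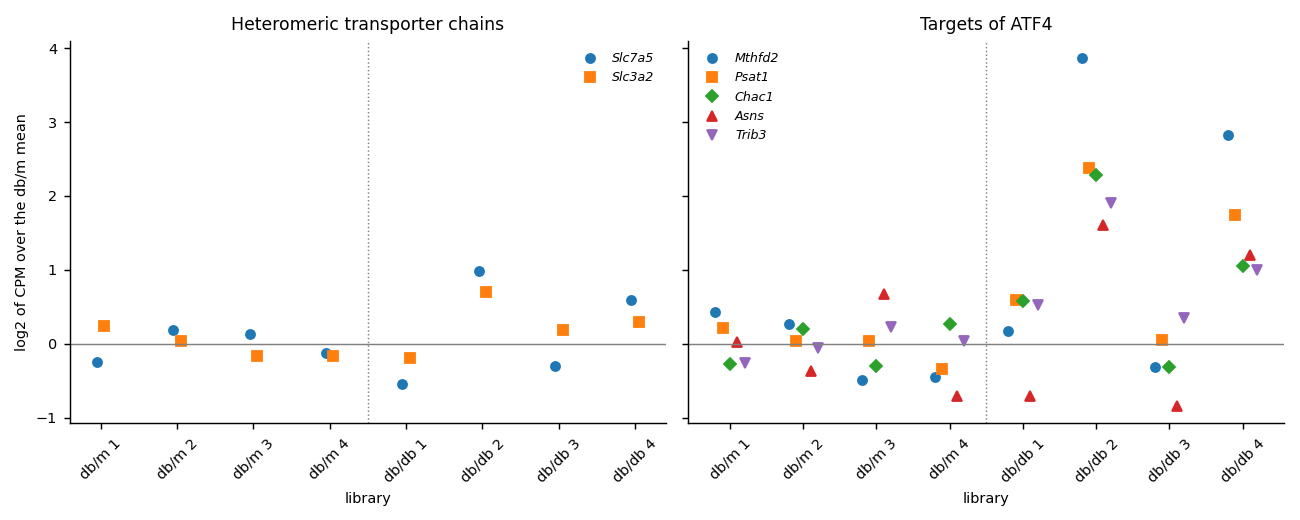
Log2 of CPM over the db/m mean (vertical axis) in each of the 8 libraries for Slc7a5 and Slc3a2 (left) and for 5 targets of ATF4 (right), with 1 point per gene and library. The 5 targets were picked from the 13 of 27 tested list genes that had db/db 2 and 4 as their 2 highest libraries. Their shared order with Slc7a5 and Slc3a2 therefore comes with that choice. Every gene shown is highest in db/db 2, where Mthfd2 reaches 49.9 CPM and Slc7a5 21.8 CPM, and db/db 4 comes second.

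**Figure D4:**
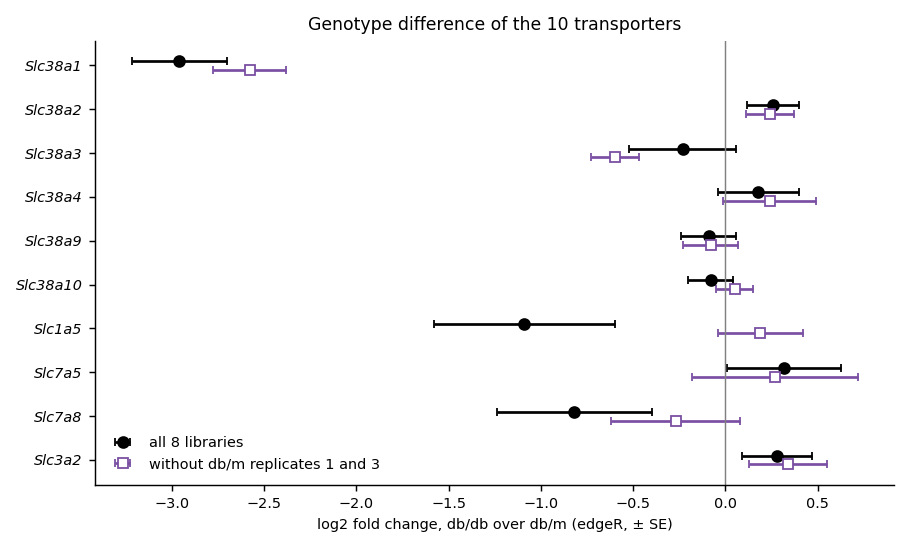
Log2 fold change of db/db over db/m with its SE (horizontal axis) for the 10 transporters, with all 8 libraries (filled circles) and without db/m replicates 1 and 3 (open squares). Slc38a1 stays far below 0 at -2.96 and -2.58, Slc1a5 moves from -1.09 to 0.19, and Slc38a3 from -0.23 to -0.60.

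Compared per kilobase of merged exons over all 8 libraries, Slc38a2 was the most abundant member at 35.4 ± 5.04 CPM per kilobase (SD, n = 8), followed by Slc38a10 at 21.3 ± 2.0. Slc1a5 at 11.9 ± 9.85, Slc3a2 at 11.8 ± 2.65 and Slc38a3 at 8.34 ± 2.55 came next. Slc38a10 was above Slc1a5 in 7 of 8 libraries, the exception being db/m 3. Slc1a5 was above Slc3a2 in 2 of 8 libraries, and Slc3a2 above Slc38a3 in 6 of 8, so the order of these 3 does not exceed their spread. Slc7a5 at 3.32 ± 1.27, Slc38a4 at 2.08 ± 0.460, Slc7a8 at 1.85 ± 1.18 and Slc38a1 at 1.30 ± 1.19 followed, each overlapping its neighbour. Slc38a9 was lowest over the 8 libraries at 0.909 ± 0.103. By genotype, Slc38a1 averaged 2.30 CPM per kilobase in db/m, above Slc38a4 (1.95) and Slc38a9 (0.939), and 0.295 in db/db, where it was the lowest member, below Slc38a9 (0.880). Merged exons of Slc38a1 span 17236 bases and its longest coding transcript 7266. With that transcript length Slc38a1 stood at 3.08 CPM per kilobase and moved from ninth place to the seventh.

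Genes around Slc38a1 were examined because the gene lies beside other members. Of the protein-coding genes within 500 kb, Arid2, a chromatin remodelling subunit, had a log2 fold change of -0.30 (SE 0.17, edgeR adjusted p = 0.456) and Scaf11, a splicing-related factor, of -0.31 (SE 0.18, adjusted p = 0.455). Both were highest in db/m 3, at 81.9 and 156 CPM. Without db/m 1 and 3 their values were -0.07 and -0.04. On the other side lay Slc38a2 and Slc38a4, with the positive values given above. No tested gene in this interval other than Slc38a1 passed the threshold.

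**Figure D5:**
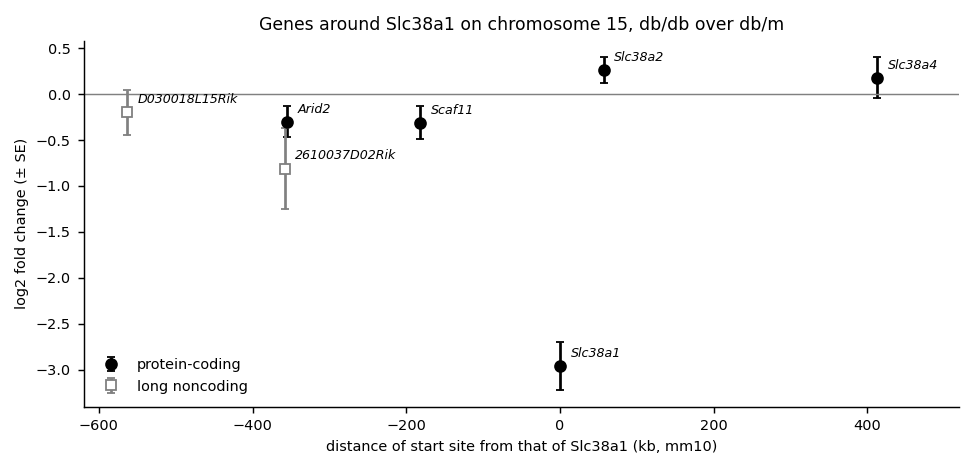
Log2 fold change of db/db over db/m with its SE (vertical axis) for tested genes around Slc38a1, placed by the distance of their start site from that of Slc38a1 in kb. Slc38a1 lies at -2.96, while its protein-coding neighbours lie between -0.31 and 0.26.

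The genes whose log2 CPM followed Slc38a1 most closely over the 8 libraries were picked from 15946 others with a mean of at least 1 CPM. They were the long noncoding Gm40841 (Pearson r = 0.984), the forkhead factor gene Foxo6 (0.980), the pseudogene Gm9182 (0.967), the sodium channel gene Scn10a (0.966) and Shisa6 (0.965), which codes for a partner of glutamate receptors. These correlations describe 8 libraries that share the genotype difference, and all 5 genes had lower means in db/db. Foxo6 averaged 6.50 CPM in db/m and 2.56 CPM in db/db, Shisa6 2.90 and 0.335 CPM, and Gm40841 2.30 and 0.193 CPM. Their edgeR adjusted p was 0.102 each with all libraries. Without db/m 3, a fit in which 0.600% of 17652 tested genes passed, it was 0.0307, 0.0301 and 0.0301. Without db/m 1 and 3 it was 0.0965, 0.0799 and 0.0794, above the threshold again. The DESeq2 adjusted p was 3.63e-05, 2.53e-06 and 8.07e-06, where 1.78% of 19916 genes were called. By limma-voom it was 0.0216, 0.0161 and 0.0191, with 0.747% of genes called. For Scn10a and Gm9182 the edgeR adjusted p was 0.136 and 0.259 with all libraries, and 0.0832 and 0.259 without db/m 3. Without db/m 1 and 3 it was 0.197 and 0.432. By DESeq2 Scn10a and Gm9182 had 0.00257 and 0.117, and by limma-voom 0.0444 and 0.158. In db/db libraries Gm40841 had 1 to 8 counts and Shisa6 2 to 15. The genes were picked for following Slc38a1, so lower levels in db/db come largely with that choice. After removing each genotype's mean, the 5 closest were Axin2 (0.987), Tal1 (0.986), Gm7357 (0.984), Golm1 (0.981) and Agrn (0.978), and 0 genes were shared with the first 5. Among members, Slc1a5 had r = 0.909 with Slc38a1 after that removal, both being highest in db/m 3 and db/m 1, and Slc38a3 had r = -0.847.

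In 8 lists of related genes, edgeR passed 0 genes with all libraries. DESeq2, which called 1.78% of 19916 genes with an adjusted p, called 4 of them: Slc6a17, Sesn1, Psat1 and Glul. Limma-voom, with 0.747% of all genes called, called Slc6a17 and Glul, as did edgeR without db/m 3. Without db/m 1 and 3, where 0.256% of 17971 genes passed, 0 list genes did.

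Among other plasma membrane amino acid transporters, 15 of 18 tested genes had values below 0 and 7 an unadjusted p under 0.05 with lower levels, 0 with higher ones. Over all 17411 tested genes, 9109 values were below 0, and 7.84% were lower and 5.12% higher at that p. The median log2 fold change was -0.39, and -0.07 without db/m 1 and 3. In 9 of the 18 the 2 highest libraries were db/m 1 and 3, against 2604 of all 17411 tested genes, the libraries of high adipocyte and atrial markers, whose part in these values was not tested. Slc6a17, a synaptic vesicle carrier of neutral amino acids, stood at 10.3, 7.36, 10.8 and 8.31 CPM in db/m and at 4.31, 4.79, 3.92 and 4.80 CPM in db/db. Its groups did not overlap, and its log2 fold change was -1.05 (SE 0.19, edgeR adjusted p = 0.128), and -0.82 without db/m 1 and 3. Slc7a1, the cationic carrier CAT1, averaged 106 ± 6.47 CPM in db/m and 67.0 ± 22.7 CPM in db/db (SD, n = 4), with a log2 fold change of -0.66 (SE 0.21, adjusted p = 0.296). Slc36a1, a lysosomal and surface proton-coupled carrier, had -0.44 (SE 0.13, adjusted p = 0.271). Slc36a2, a proton-coupled carrier of small amino acids, moved from -0.90 to -0.23 without db/m 1 and 3. The most abundant of the list per kilobase was Slc6a6, the taurine carrier, at 0.20 (SE 0.18, adjusted p = 0.614).

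Of the 5 remaining SLC38 genes 3 were tested, and none had an unadjusted p under 0.05. Slc38a7, a lysosomal glutamine exporter, averaged 20.5 ± 4.22 CPM in db/m and 22.3 ± 0.950 CPM in db/db (SD, n = 4), and Slc38a6 and Slc38a11 were at 7.69 CPM or less in every library. Among 11 tested mitochondrial amino acid carriers, 2 had an unadjusted p under 0.05 and lower levels, against 7.84% of all tested genes. Slc25a15, the ornithine carrier, had a log2 fold change of -0.48 (SE 0.15, edgeR adjusted p = 0.296), and Sfxn1, a mitochondrial serine carrier, moved from -0.93 to -0.23 without db/m 1 and 3. Slc25a12 and Slc25a13, the aspartate-glutamate carriers and with Slc25a44 the most abundant of that list per kilobase, had values of 0.12 (SE 0.16) and 0.16 (SE 0.19).

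The list of amino acid sensing by mTORC1 had 26 of 38 tested genes above 0 with a median of 0.10, and 3 at an unadjusted p under 0.05, all higher. Over all tested genes 8302 of 17411 values were above 0 and 5.12% were higher at that p, or 13.0% counting both directions. Sesn1, a leucine-sensing sestrin, stood at 101, 100.4, 87.3 and 124 CPM in db/m and at 147, 169, 169 and 131 CPM in db/db. Every db/db library was above every db/m library, and its log2 fold change was 0.58 (SE 0.15, edgeR adjusted p = 0.221). Rragd and Rraga, Rag GTPases that recruit mTORC1 to the lysosome, had 0.05 (SE 0.15) and 0.24 (SE 0.15).

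In the list of ATF4 and its targets, 23 of 27 tested genes had values above 0 and the median was 0.45, 0.32 without db/m 1 and 3. At an unadjusted p under 0.05, 7 were higher and 1, Slc7a1, lower. Over all tested genes 8302 of 17411 values were above 0, and 5.12% were higher and 7.84% lower at that p. Trib3, a pseudokinase target, had a log2 fold change of 1.08 (SE 0.32, edgeR adjusted p = 0.285) and Psat1 of 1.46 (SE 0.44, adjusted p = 0.291), each led by db/db 2. The most abundant of the list per kilobase, Atf5, Ddit4 and Vldlr, had 0.27 (SE 0.30), 0.47 (SE 0.45) and 0.20 (SE 0.19).

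Glul, glutamine synthetase, had the smallest p among 20 tested glutamine and glutamate enzymes, of which 3 were higher and 1 lower at an unadjusted p under 0.05, against 5.12% and 7.84% of all tested genes. It stood at 273, 267, 287 and 283 CPM in db/m and at 442, 542, 400.2 and 400.4 CPM in db/db. The db/m libraries lay close together and all db/db libraries lay well above them. Its log2 fold change was 0.69 (SE 0.14, edgeR adjusted p = 0.136), and the same 0.69 without db/m 1 and 3. Cad, which starts pyrimidine synthesis from glutamine, had -0.44 (SE 0.16), and Got1 and Got2, the aspartate aminotransferases, moved from 0.39 and 0.54 to -0.00 and 0.23 without db/m 1 and 3. Among 8 branched-chain amino acid entry enzymes 1 had an unadjusted p under 0.05, Bckdha, a subunit of the keto acid dehydrogenase, at 0.44 (SE 0.18, adjusted p = 0.358), and its kinase gene Bckdk had 0.28 (SE 0.14). Dld, Dbt and Ppm1k, the most abundant per kilobase, had 0.29, -0.12 and -0.03. Of 14 regulators of these transporters 1 had an unadjusted p under 0.05, Hif1a, the hypoxia factor, at 0.33 (SE 0.13, adjusted p = 0.347), and Myc had 0.56 (SE 0.27). Epas1, Nedd4 and Wwtr1, the most abundant per kilobase, had 0.08, -0.16 and -0.17.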

How the data were processed

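RNA of 8 heart libraries, 4 db/m and 4 db/db, was sequenced, and libraries were grouped by the genotype in the labels. The deposited values are whole-number read counts per Ensembl gene, not normalised, per the file headers, and the deposited table also gives another value per gene, the merged exon length. The genome build was mm10, per the submitters' processing notes. For the aligner, the counter, the annotation and the use of strand the sources used here give nothing, and overlapping antisense genes cannot be told apart. The 8 single-library tables held the same counts.

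Symbols and transcripts came from GENCODE M21 on GRCm38 (mm10). The main test of the counts was run in R 4.3.3 with edgeR 4.0.16 (filterByExpr with a minimum count of 10 and a minimum total of 15, TMM, robust quasi-likelihood F test, two-sided, genotype as the single factor), with Benjamini-Hochberg adjustment over 17411 genes. Alternatives were DESeq2 1.42.0, limma-voom (limma 3.58.1) with sample weights, other scalings and filters, a replicate block and leaving out each library; leaving out db/m 1 and 3 together was added after seeing the data. Likeness used log2 CPM with a prior count of 2. Coding sequences were aligned with MAFFT 7.526, and near-identical copies sought with BLAST 2.17.0. The fits were also run on simulated counts with the same scatter for every gene and no outlying library. That run cannot show how the fits do with libraries such as db/m 1 and 3.

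The members and gene lists were chosen with earlier results of these data known. From each list the text names genes past the threshold, up to 3 with the highest level per kilobase and up to 2 with the smallest p, besides the 5 genes most like Slc38a1 by each measure and protein-coding genes within 500 kb of it. Mthfd2, Asns, Atf4 and the genes named for their highest libraries were named after their values were seen. A promoter window of the ATF4 list is not reported here.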

Additional observations from a re-analysis of the deposited data

Results flagged for a closer look

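Within each genotype the highest or lowest of 4 libraries was compared with the others by Dixon's ratio for 56 named genes, 112 groups of 4 in all, and 4 groups held a library beyond its 95% critical value; chance gives about 1 in 20 groups. Slc7a8 stood at 22.9 CPM in db/m replicate 3 against 7.17 to 8.88 CPM in the other db/m libraries, and Cad at 31.3 CPM in the same library against 21.3 to 22.2 CPM. Slc25a44, a mitochondrial carrier of branched-chain amino acids, stood at 38.1 CPM in db/db replicate 4 against 32.3 to 33.1 CPM in the other db/db libraries. Rragd was lowest in db/db replicate 2, at 221 CPM against 260.5 to 264 CPM.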

How the results depend on the processing

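The log2 fold change of Slc38a1 stayed between -3.13 and -2.58 over 17 alternatives, and between -3.13 and -2.72 when single libraries were left out. Its adjusted p passed above 0.05 in 4 of the 8 fits that left out a single library, in which the number of members called ranged from 0 to 1; their log2 fold changes ran from -2.97 to -2.87 (-2.94 without db/m 1, -2.97 without db/db 1, -2.92 without db/db 2 and -2.87 without db/db 4). The count of genes called among all tested was 1 by edgeR with all libraries, 354 by DESeq2, 130 by limma-voom, 27 with no filter on low counts and 46 without db/m 1 and 3; leaving out single libraries gave 0 to 106. The cause was not tested. In the 8 pathway lists together, 4 genes were called by DESeq2, 2 by limma-voom and 0 to 2 when single libraries were left out, the 2 arising without db/m 3. Directions reversed for Slc38a9 without db/m 3 (0.00, in a range of -0.16 to 0.00 over single libraries left out), for Slc38a10 (-0.12 to 0.02 over single libraries left out) by limma-voom (0.04), without db/m 3 (0.02) and without db/m 1 and 3 (0.05), and for Slc1a5 without db/m 1 and 3 (0.19). By Spearman's correlation, as after removing genotype means, 0 of the 5 genes most like Slc38a1 were the same.

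With the replicate number as a block (replicate block), 5 genes were called and Slc38a1 had -2.92. Over the tested genes, deviations of same-numbered libraries from their genotype means correlated at -0.09, 0.06, 0.03 and 0.02. Such values over all genes cannot exclude a link that touches a part of the genes. The lowest count of any member in a library was 70, for Slc7a8 in db/db 4.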
